A study of Mus musculus with 12 samples.

Results

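The somatic MAGE genes are a small group of X-linked genes of the MAGE (melanoma antigen) family. The rows named Maged1, Maged2, Magee1, Magee2 and Mageh1 were taken from the deposited table by name, which gave 5 genes of the 952 listed. The 15 rows whose names start with Magea or Mageb served as the testis-type comparison. The table gives 1 log2 enrichment value per gene for each of 8 chromatin immunoprecipitation and sequencing (ChIP-seq) libraries. These cover 2 histone marks of silent chromatin, H3K9me3 and H3K27me3, in 2 cell types and 2 genotypes. The cells were epiblast stem cells (EpiSCs, from embryos at E6.5) and embryonic fibroblasts (MEFs, from E13.5 embryos). MD1 cells were Smchd1 MD1/MD1 and lack SmcHD1, a chromosomal protein needed to keep the inactive X silent, and WT cells were Smchd1 +/+. All cells were female, came from crosses of C57BL6/J with F1 animals of JF1 x C57BL6/J, and were Xist deltaA/+. An X whose Xist RNA lacks its A-repeat is not silenced, so the X carrying the intact Xist is the inactive one in such cells. Each combination of mark, genotype and cell type had 1 library, and none of the sources used here says whether it came from 1 line or embryo or from several. No test across samples was possible, and no difference described here has a replicate check.

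MAGE proteins share a MAGE homology domain, and many of them bind RING-type ubiquitin ligases and steer what these modify. The Magea and Mageb genes are expressed mainly in the testis and, in human cancers, in tumours. The Maged, Magee and Mageh genes are expressed in many somatic tissues, the nervous system among them. On the inactive X, Polycomb complexes place H3K27me3 over silent genes, and H3K9me3 marks a second kind of silent domain.

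Each value equals a ratio of 2 whole numbers multiplied by a constant that its library shares, and the ratio is taken as ChIP over input. None of the sources used here says what sets the constant, which X the reads came from, or which bases of a gene were counted, so 0 on the deposited scale need not be the input level. Intervals given below are 95% counting intervals from the smallest whole-number pairs that give each value; they cover counting error only. The library medians of all genes were −1.27 (MD1) and 2.03 (WT) for H3K9me3 in EpiSCs, and −1.26 (MD1) and −0.054 (WT) in MEFs. For H3K27me3 they were 4.07 (MD1) and 4.17 (WT) in EpiSCs, and 2.38 (MD1) and 2.09 (WT) in MEFs. The ChIP pair had a median of 13 to 70 per gene for H3K9me3 and 293 to 678 for H3K27me3, over the 4 libraries of each mark. The table holds X-linked genes only, so Smchd1 itself and markers of the cell types were not analysed here.

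All 5 somatic MAGE genes had a promoter in the RefSeq table of build GRCm38.p6, as did 12 of the 15 Magea and Mageb genes. The 250 bases before the start are printed for the 3 somatic genes measured in every library and for Mageb16 and Magea8, the Magea and Mageb genes with the highest H3K9me3 in WT EpiSCs. Capitals mark CpG, the dinucleotide that carries DNA methylation, and all sequences read 5′ to 3′ on the strand of the gene.
Maged1, chrX:94542026-94542275, minus strand: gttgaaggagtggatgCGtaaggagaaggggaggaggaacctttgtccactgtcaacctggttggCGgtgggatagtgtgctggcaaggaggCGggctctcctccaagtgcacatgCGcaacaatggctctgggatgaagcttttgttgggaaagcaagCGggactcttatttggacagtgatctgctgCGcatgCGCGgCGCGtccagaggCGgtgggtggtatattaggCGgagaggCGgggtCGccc
Maged2, chrX:150813003-150813252, minus strand: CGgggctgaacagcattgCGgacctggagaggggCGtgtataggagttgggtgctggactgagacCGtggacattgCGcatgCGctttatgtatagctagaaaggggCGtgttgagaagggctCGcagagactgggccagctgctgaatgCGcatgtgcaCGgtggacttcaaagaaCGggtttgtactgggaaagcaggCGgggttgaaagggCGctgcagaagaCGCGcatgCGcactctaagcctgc
Magee1, chrX:105120128-105120377, plus strand: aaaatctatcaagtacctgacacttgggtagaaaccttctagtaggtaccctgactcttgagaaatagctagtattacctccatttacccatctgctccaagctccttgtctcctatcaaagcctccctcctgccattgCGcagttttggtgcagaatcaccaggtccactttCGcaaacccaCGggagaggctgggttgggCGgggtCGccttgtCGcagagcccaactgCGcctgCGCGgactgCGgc
Mageb16, chrX:79671436-79671685, minus strand: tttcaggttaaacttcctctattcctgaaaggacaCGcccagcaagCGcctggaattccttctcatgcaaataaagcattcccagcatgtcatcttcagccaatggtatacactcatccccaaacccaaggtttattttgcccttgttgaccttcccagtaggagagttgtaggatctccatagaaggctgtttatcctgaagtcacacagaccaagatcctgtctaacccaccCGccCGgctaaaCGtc
Magea8, chrX:154995851-154996100, minus strand: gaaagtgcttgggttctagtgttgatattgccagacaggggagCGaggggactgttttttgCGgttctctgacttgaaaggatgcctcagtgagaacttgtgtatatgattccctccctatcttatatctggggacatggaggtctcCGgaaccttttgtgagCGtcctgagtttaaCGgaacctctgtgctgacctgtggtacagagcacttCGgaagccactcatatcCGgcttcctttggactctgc
These windows hold 14 CpGs at Maged1, 16 at Maged2, 10 at Magee1, 5 at Mageb16 and 7 at Magea8. RefSeq lists 4 starts for Maged2, with 7 to 16 CpGs, and the window with the most is shown. Across the 8 somatic windows the count ran from 7 to 16 with a median of 10.5, and across the 12 Magea and Mageb windows from 0 to 9 with a median of 1. The median of all 32851 promoters in the table was 6, and that of the 1223 on the X was 5. The letters CCATNTT, a motif of the factor YY1, were searched on both strands. They were found in 1 of the 5 somatic genes (Maged2, in 1 of its 4 windows, not printed). Of the 12 Magea and Mageb genes with a promoter, 2 held them (Magea10 and Magea2). Counted by window and not by gene, 12.4% of all promoters and 15.9% of those on the X held them, so a gene with several windows had more chances.

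Of the somatic genes, Maged1, Maged2 and Magee1 had a value in all 8 libraries. The other 2 are short. Magee2 (2316 bases) had values in MEFs only, and Mageh1 (1398 bases) in MD1 cells only. Of the Magea and Mageb genes, 5 had all 8 values (Magea8, Magea10, Mageb16, Mageb16-ps1 and Mageb18), 3 had some and 7 had none. By its name Mageb16-ps1 is a pseudogene, and it was kept in all counts because the rows were chosen by name. In the whole table the 698 genes with all values had a median length of 20602 bases, and the 184 with none a median of 1960. Several mouse Magea genes are near-identical copies of each other, so how the authors' counting split reads between them bears on their values and was not tested.

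In WT cells the H3K27me3 values of the measured somatic MAGE genes lay above the library median. Only at Maged1 in EpiSCs and at Maged2 in MEFs did the counting interval leave that median out. In WT EpiSCs Maged1 had 4.90, Magee1 4.74 and Maged2 4.71, between the 78.7 and 91.9 percentiles of all genes in that library. In WT MEFs Magee2 had 2.97, Maged2 2.93, Maged1 2.72 and Magee1 2.64, between the 81.8 and 93.2 percentiles. The counting intervals of neighbours in both orders overlapped, so the order is not fixed. H3K9me3 placed the genes differently in the 2 cell types. It was 1.14 at Maged2, 1.09 at Maged1 and −0.030 at Magee1 in WT EpiSCs, all under the library median, at the 20.8 to 38.3 percentiles. In WT MEFs it was 1.99 at Maged1, 1.28 at Magee2, 0.54 at Maged2 and 0.46 at Magee1, all above the library median, at the 68.9 to 95.0 percentiles. For H3K9me3 the counting interval left out the library median only at Magee1 in EpiSCs and at Maged1 in MEFs.

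**Figure D1:**
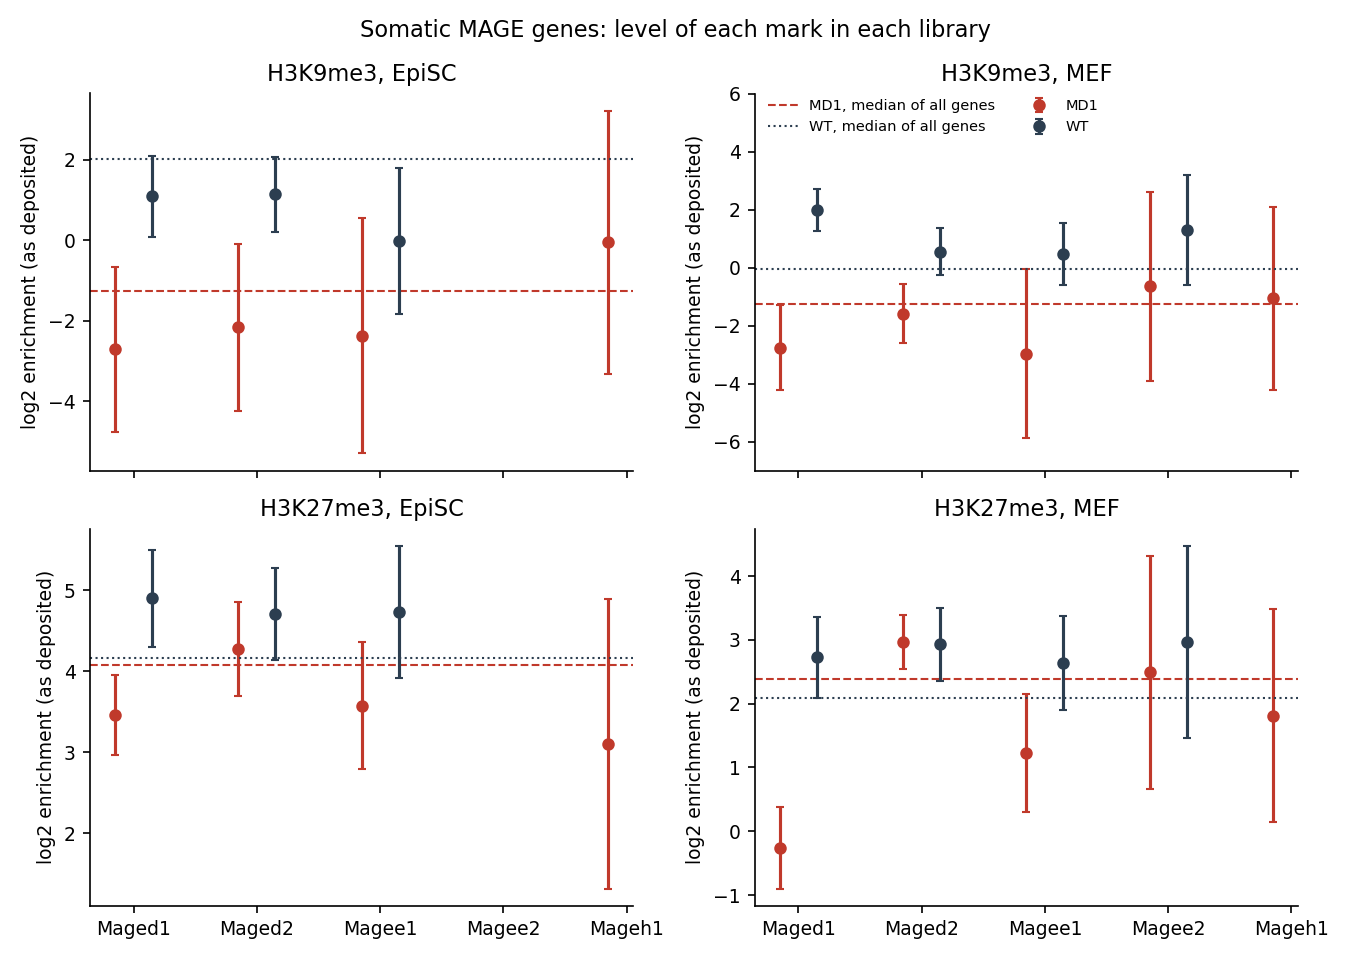
Log2 enrichment of H3K9me3 (upper row) and H3K27me3 (lower row) at the 5 somatic MAGE genes in EpiSCs (left) and MEFs (right), with MD1 to the left of WT for each gene. Bars are 95% counting intervals of 1 library and horizontal lines are the library medians of all genes; in MEFs, H3K27me3 at Maged1 was −0.26 in MD1 and 2.72 in WT, while Maged2 had 2.97 in MD1 and 2.93 in WT.

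Maged1 (X, 91780813 to 91787413 in mm9, minus strand) encodes a protein also known as NRAGE, which binds the p75 neurotrophin receptor and promotes cell death. Both marks were lower at Maged1 in MD1 cells of both types on the deposited scale. H3K9me3 was −2.71 in MD1 EpiSCs and 1.09 in WT EpiSCs, a change of −3.80 (−6.08 to −1.52). In MEFs it was −2.77 in MD1 and 1.99 in WT, a change of −4.75 (−6.39 to −3.12). That change lay at the 1.63 percentile of the changes of all genes in MEFs, while the one in EpiSCs lay at the 33.1 percentile. H3K27me3 was 3.46 in MD1 EpiSCs and 4.90 in WT EpiSCs, a change of −1.44 (−2.22 to −0.67). In MEFs it was −0.26 in MD1 and 2.72 in WT, a change of −2.98 (−3.88 to −2.08), or 7.89-fold lower. On the deposited scale the WT MEF interval (2.09 to 3.36) lay above 0 and the MD1 MEF interval (−0.90 to 0.39) held 0. The H3K9me3 values in MD1 cells rested on ChIP pairs of 2 in EpiSCs and 4 in MEFs, and those for H3K27me3 on 243 and 31.

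Maged2 (X, 147240964 to 147248882, minus strand) encodes a protein that in humans keeps renal salt transporters at the cell surface before birth. Its H3K9me3 was lower in MD1 cells on the deposited scale, while its H3K27me3 did not differ beyond counting error. H3K9me3 was −2.16 in MD1 EpiSCs and 1.14 in WT EpiSCs, a change of −3.30 (−5.58 to −1.03). In MEFs it was −1.60 in MD1 and 0.54 in WT, a change of −2.14 (−3.45 to −0.83). After each library was centred on its median, these H3K9me3 changes were −0.0052 in EpiSCs and −0.95 in MEFs. H3K27me3 was 4.28 in MD1 EpiSCs and 4.71 in WT EpiSCs, a change of −0.43 (−1.24 to 0.38), and 2.97 in MD1 MEFs and 2.93 in WT MEFs, a change of 0.034 (−0.68 to 0.75). Both H3K27me3 intervals held 0, and the sign turned with the scaling, to 0.033 in EpiSCs when centred on genes outside the H3K9me3-rich set (those with a deposited WT value of at least 1) and to −0.25 in MEFs when centred on the median of all genes.

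Magee1 (X, 102315735 to 102319250, plus strand) encodes a protein, also called DAMAGE, that binds alpha-dystrobrevin in the complex around dystrophin. On the deposited scale its H3K27me3 was lower in MD1 cells of both types and its H3K9me3 in MD1 MEFs beyond counting error, on small pairs. H3K9me3 was −2.37 in MD1 EpiSCs and −0.030 in WT EpiSCs, on ChIP pairs of 1 and 3, and the interval of the change of −2.34 ran from −5.78 to 1.10, with a change of 0.96 after each library was centred on its median. In MEFs it was −2.97 in MD1 and 0.46 in WT, a change of −3.43 (−6.54 to −0.32) on ChIP pairs of 1 and 12. H3K27me3 was 3.57 in MD1 EpiSCs and 4.74 in WT EpiSCs, a change of −1.16 (−2.29 to −0.032). In MEFs it was 1.23 in MD1 and 2.64 in WT, a change of −1.41 (−2.59 to −0.22). The H3K27me3 interval of Magee1 in MD1 MEFs, 0.30 to 2.15, lay above 0 on the deposited scale. Centring each library on its median adds 0.10 to the H3K27me3 change in EpiSCs and 1.19 to the H3K9me3 change in MEFs. Both intervals then hold 0, at changes of −1.06 and −2.24. The H3K27me3 change in MEFs became −1.70, with an interval still under 0.

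Magee2 (X, 102050291 to 102052606, minus strand) lies 263 kb from Magee1 and was measured in MEFs only. Its H3K9me3 was −0.65 in MD1 and 1.28 in WT, a change of −1.93 (−5.71 to 1.85), and its H3K27me3 was 2.49 in MD1 and 2.97 in WT, a change of −0.48 (−2.84 to 1.89). Both intervals held 0, on input pairs of 3 in MD1 and 4 in WT. Mageh1 (X, 149470709 to 149472106, minus strand), whose product binds the p75 neurotrophin receptor, had no WT value and so no change. In MD1 cells its H3K9me3 was −0.049 in EpiSCs and −1.07 in MEFs, and its H3K27me3 was 3.10 in EpiSCs and 1.81 in MEFs, on input pairs of 3 and 4.

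Counted as a group, the somatic genes with a change in H3K9me3 were all at least 2-fold lower in MD1 cells, 3 of 3 in EpiSCs, where 82.9% of all genes were, and 4 of 4 in MEFs, where 51.3% were. None was at least 2-fold higher, where 1.13% of all genes were in EpiSCs and 0.677% in MEFs. Their median change was −3.30 in EpiSCs and −2.78 in MEFs, and that of all genes was −2.98 and −1.02. The EpiSC count is thus near the background, and after each library was centred on its median it was 0 of 3, with changes of −0.50 at Maged1, −0.0052 at Maged2 and 0.96 at Magee1. In MEFs Maged1 (−3.56) and Magee1 (−2.24) remained at least 2-fold lower after that centring. H3K27me3 was at least 2-fold lower at Maged1 and Magee1 in both cell types, 2 of 3 genes in EpiSCs and 2 of 4 in MEFs, where 11.3% and 24.0% of all genes were, and at least 2-fold higher at none, where 22.7% and 22.3% were. The median H3K27me3 change of the somatic genes was −1.16 in EpiSCs and −0.94 in MEFs, and that of all genes was −0.069 and 0.34. Centring on genes outside the H3K9me3-rich set left 0 of 3 at least 2-fold lower in EpiSCs and 2 of 4 in MEFs.

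Differences between genes within the same 2 libraries hold no library constant. In MEFs the H3K27me3 change at Maged1 minus that at Maged2 was −3.01 (−4.17 to −1.86). It was −1.57 (−3.06 to −0.082) for Maged1 minus Magee1 and −1.44 (−2.83 to −0.060) for Magee1 minus Maged2. The order Maged1, Magee1, Maged2 therefore exceeded counting error in MEFs. In EpiSCs the same 3 differences were −1.01 (−2.13 to 0.11), −0.28 (−1.65 to 1.09) and −0.73 (−2.12 to 0.66), and each interval held 0. For H3K9me3 the difference of Maged1 from Maged2 was −2.62 (−4.71 to −0.52) in MEFs and −0.50 (−3.72 to 2.73) in EpiSCs.

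Of the 5 Magea and Mageb genes with values in EpiSCs of both genotypes, 3 had the opposite balance of marks in WT cells and the opposite direction of H3K27me3 change. Magea3 and Magea5 had values in MD1 EpiSCs but not in WT EpiSCs. In WT EpiSCs Magea8, Mageb16 and Mageb18 had H3K9me3 of 4.23, 3.98 and 3.77 and H3K27me3 of −0.16, −0.58 and 0.63, while Magea10 (H3K9me3 −0.10, H3K27me3 4.39) and Mageb16-ps1 (0.86 and 4.82) had the marks the other way round, as the somatic genes did. The split also followed length. Magea8 spans 10076 bases, Mageb16 48205 and Mageb18 480694, but Magea10 only 4989 and Mageb16-ps1 3482. The somatic genes measured in every library span 3516 to 7919 bases. The part of length in these differences was not tested. H3K9me3 was lower in MD1 at all 5 Magea and Mageb genes in EpiSCs and all 6 in MEFs on the deposited scale, as it was at 679 of 708 and 679 of 739 of all genes. Centring each library on its median adds 3.30 to each change in EpiSCs and 1.19 in MEFs, which turns the sign of the changes nearer 0 than that. In EpiSCs the change was lowest at Mageb16 (0.28 in MD1 and 3.98 in WT, a change of −3.70, −4.33 to −3.07) and nearest 0 at Magea10 (−0.63 in MD1 and −0.10 in WT, a change of −0.53, −2.18 to 1.12). In MEFs it was lowest at Magea5 (−0.90 in MD1 and 1.25 in WT, a change of −2.15, −3.68 to −0.62) and nearest 0 at Magea10 (−1.28 in MD1 and −0.85 in WT, a change of −0.43, −2.04 to 1.18).

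H3K27me3 was at least 2-fold higher in MD1 at 3 of the 5 Magea and Mageb genes in EpiSCs and 4 of the 6 in MEFs, where 22.7% and 22.3% of all genes were. It was at least 2-fold lower at none, where 11.3% and 24.0% were. In EpiSCs the changes of these genes ran from −0.48 to 2.45 and those of the somatic genes from −1.44 to −0.43, so that Mageb16-ps1 lay inside the somatic range. In MEFs they ran from 0.56 to 2.21, above the somatic range of −2.98 to 0.034. At Mageb16 H3K27me3 was 1.84 in MD1 EpiSCs and −0.58 in WT EpiSCs, and 2.01 in MD1 MEFs and −0.21 in WT MEFs. At Magea8 it was 1.74 in MD1 EpiSCs and −0.16 in WT EpiSCs, and 2.43 in MD1 MEFs and 0.79 in WT MEFs. Within the same libraries, the H3K27me3 change at Maged1 minus that at Mageb16 was −3.87 (−4.83 to −2.90) in EpiSCs and −5.20 (−6.14 to −4.25) in MEFs. For Maged2 minus Mageb16 it was −2.86 (−3.85 to −1.86) in EpiSCs and −2.18 (−2.95 to −1.41) in MEFs. Of all pairs of a somatic with a Magea or Mageb gene, the somatic one had the lower H3K27me3 change beyond counting error in 11 of 15 in EpiSCs and 17 of 24 in MEFs, and the higher one in 0. For H3K9me3 the same counts were 1 of 15 in EpiSCs and 7 of 24 in MEFs, with 0 the other way. No such count was made against other genes, so these counts have no background beside them. The pairs share genes and are not independent. Mageb18 and Mageb16, the longest of the Magea and Mageb genes, also had the narrowest H3K27me3 counting intervals among them. Mageb16, Mageb18 and Magea8 also differed from the somatic genes in their WT levels of both marks in EpiSCs, and the part of those levels in the differing change was not tested.

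**Figure D2:**
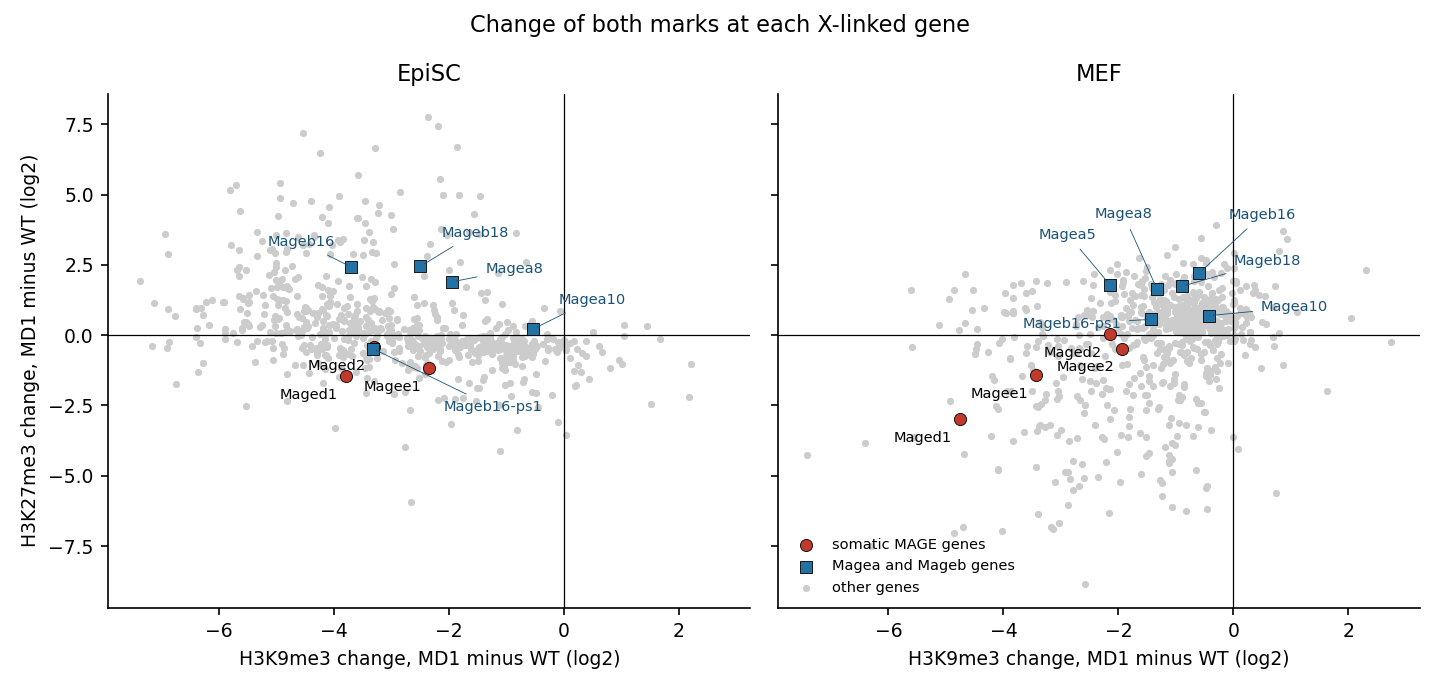
H3K27me3 change against H3K9me3 change (both MD1 minus WT, log2) for every gene with values in EpiSCs (left) and MEFs (right), with the somatic MAGE genes as circles and the Magea and Mageb genes as squares; the 2 axes share their input libraries. In MEFs all 4 somatic genes lie at or under 0.034 on the vertical axis and all 6 Magea and Mageb genes at or above 0.56.

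The place of a gene within its own library does not depend on the library's constant. Maged1 lay at the 23.0 percentile for H3K27me3 in MD1 EpiSCs and the 91.9 percentile in WT EpiSCs, and at the 16.3 percentile in MD1 MEFs and the 86.5 percentile in WT MEFs. Magee1 lay at the 26.1 percentile in MD1 EpiSCs and the 81.6 in WT EpiSCs, and at the 28.1 in MD1 MEFs and the 81.8 in WT MEFs. Maged2 kept a high place, at 69.0 in MD1 EpiSCs and 78.7 in WT EpiSCs, and at 85.3 in MD1 MEFs and 92.6 in WT MEFs. For H3K9me3 Maged1 lay at the 9.56 percentile in MD1 MEFs and the 95.0 in WT MEFs. Magea8 lay at the 98.4 percentile for H3K9me3 in MD1 EpiSCs and the 98.2 in WT EpiSCs, so its value was lower while its place among genes was nearly the same.

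**Figure D3:**
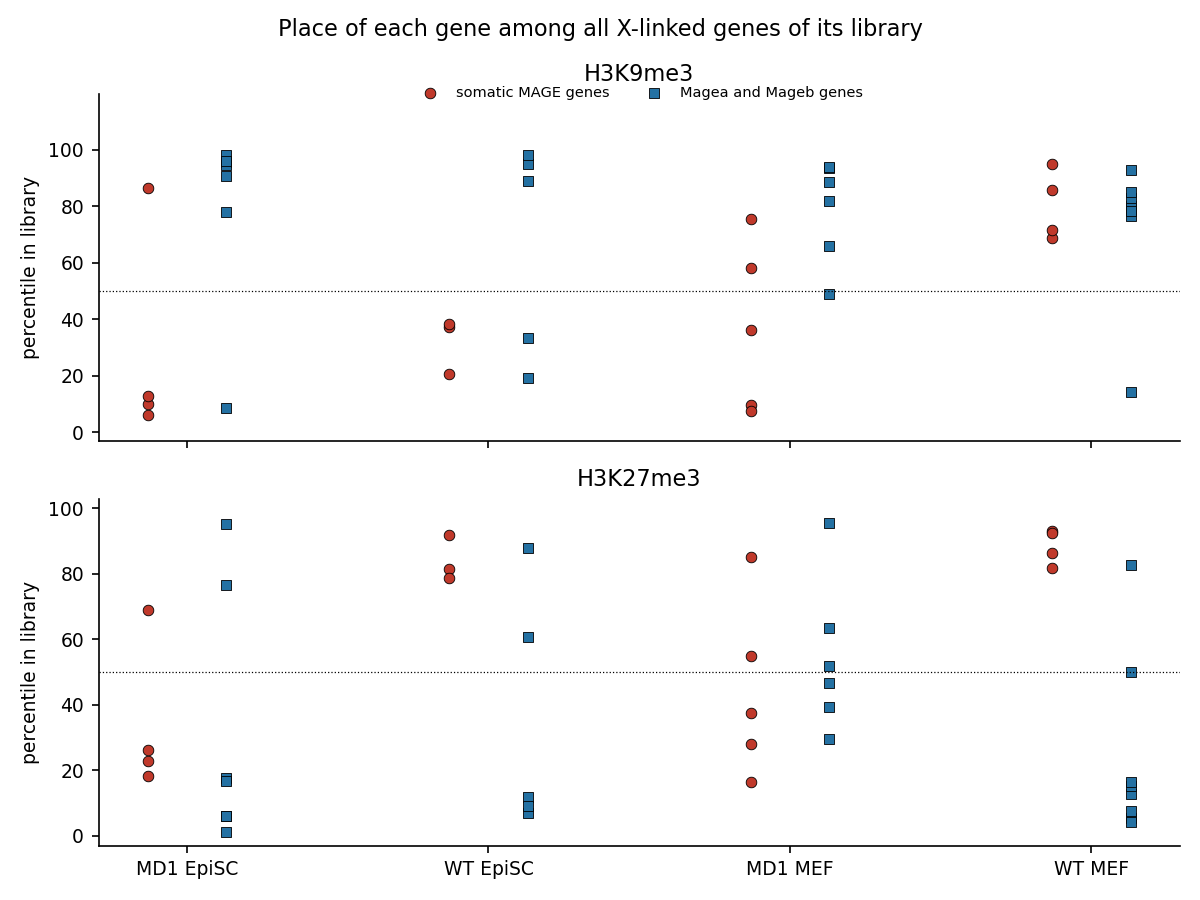
Percentile of each somatic MAGE gene (circles) and each Magea or Mageb gene (squares) among all genes with a value in the same library, for H3K9me3 (above) and H3K27me3 (below), with MD1 left of WT in each cell type. In the H3K27me3 panel the somatic genes lie between 78.7 and 93.2 in both WT libraries, and Maged1 lies at 23.0 in MD1 EpiSCs and 16.3 in MD1 MEFs.

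The 2 cell types differed in the scale of both marks, with WT medians of all genes lower in MEFs. Against that, on the deposited scale H3K9me3 at the 3 somatic genes measured in both differed by less than counting error. Maged1 had 1.99 in WT MEFs and 1.09 in WT EpiSCs (difference 0.90, −0.33 to 2.14), Magee1 0.46 and −0.030 (difference 0.49, −1.62 to 2.59) and Maged2 0.54 and 1.14 (difference −0.59, −1.83 to 0.64). None of the 3 differed by 2-fold, where 68.2% of all genes were at least 2-fold lower in MEFs and 3.52% higher. H3K27me3 was lower in WT MEFs than in WT EpiSCs at all 3, with differences of −2.17 at Maged1, −2.10 at Magee1 and −1.78 at Maged2, where the median of all genes was −1.88 and 78.2% were at least 2-fold lower and 6.47% higher. After each library was centred on its median, the 3 differences were 3.05, 2.63 and 1.55 for H3K9me3 and −0.12, −0.045 and 0.28 for H3K27me3, in the order Maged1, Magee1, Maged2. The reading of H3K9me3 thus depends on the scale. Centred, all 3 differences were at least 2-fold with intervals above 0, where 244 of 711 genes were at least 2-fold higher.

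Neighbouring genes did not all follow the somatic MAGE genes. Magee1 starts 3.31 kb after the end of Pbdc1, a gene known to escape X inactivation. H3K9me3 at Pbdc1 was −1.36 in MD1 MEFs and −1.84 in WT MEFs, a change of 0.48, and the change at Magee1 minus that at Pbdc1 was −3.90 (−7.11 to −0.70). In EpiSCs the same difference was −2.77 (−6.35 to 0.80) and held 0. Their H3K27me3 changes were closer, −1.41 at Magee1 and −1.16 at Pbdc1 in MEFs, with a difference of −0.25 (−1.64 to 1.14), although H3K27me3 in WT MEFs was −0.72 at Pbdc1 and 2.64 at Magee1. On the other side of Magee1, 249 kb away, 5330434G04Rik had H3K27me3 of 2.97 in MD1 MEFs and 2.93 in WT MEFs. Over the 10 nearest measured genes of Magee1 the H3K27me3 change in MEFs ran from −4.46 to 0.71, with −1.41 at Magee1. At 5 of these 10 it was at least 2-fold lower, where 24.0% of all genes were. The H3K9me3 change in MEFs ran from −2.79 to 0.48, with −3.43 at Magee1. In EpiSCs the ranges were −1.56 to 0.51 for H3K27me3 (−1.16 at Magee1) and −4.88 to 0.43 for H3K9me3 (−2.34 at Magee1).

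Around Maged1 the nearest measured genes were Gm14827, 87.7 kb before it, and on the other side Gspt2 in EpiSCs (94.0 kb, a translation termination factor gene) and Zxdb in MEFs (182 kb). In MEFs the H3K9me3 change was 0.70 at Gm14827 and −1.26 at Zxdb, with −4.75 at Maged1. Over the 10 nearest measured genes it ran from −2.51 to 0.70 with a median of −0.67, and in EpiSCs from −3.40 to 1.67, with −3.80 at Maged1. H3K27me3 in MEFs was at least 2-fold lower in 5 of these 10, where 24.0% of all genes were, with changes from −2.30 to 0.74 and −2.98 at Maged1. The 5 include Apoo (−2.27) and Apoo-ps (−2.30), which lies within Apoo, so they are not separate places. Against Zxda, another of the neighbours, the H3K9me3 change at Maged1 was lower beyond counting error in MEFs, with a difference of −3.85 (−6.03 to −1.67). In EpiSCs the H3K9me3 difference from Zxda was −0.68 (−3.66 to 2.29) and in MEFs that of H3K27me3 was −0.78 (−2.02 to 0.45), and both held 0.

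Maged2 lies between Tro, 149 kb before it, and Gnl3l, 169 kb after it. Tro encodes trophinin, an adhesion protein that belongs to the MAGE-D group. H3K9me3 at Tro was −0.19 in MD1 MEFs and −0.88 in WT MEFs, a change of 0.69 (−0.65 to 2.03), and the change at Maged2 minus that at Tro was −2.83 (−4.70 to −0.96). In EpiSCs H3K9me3 at Tro was −0.90 in MD1 and 0.85 in WT, a change of −1.75, and the same difference of −1.55 (−4.32 to 1.21) held 0. H3K27me3 at Tro was 3.67 in MD1 MEFs and 2.66 in WT MEFs, a change of 1.01 (0.27 to 1.76). The H3K27me3 change at Maged2 minus that at Tro was −0.98 (−2.01 to 0.052) in MEFs, which held 0, and −1.15 (−2.23 to −0.077) in EpiSCs. Over the 10 nearest measured genes of Maged2 the H3K9me3 change in MEFs ran from −1.47 to 0.69, with −2.14 at Maged2, and in EpiSCs from −5.90 to −1.17, with −3.30 at Maged2. Mageh1, on the minus strand, has its start 0.066 kb from 9530051G07Rik. That gene is read from the other strand and had H3K27me3 of 4.25 in MD1 EpiSCs and 4.79 in WT EpiSCs.

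**Figure D4:**
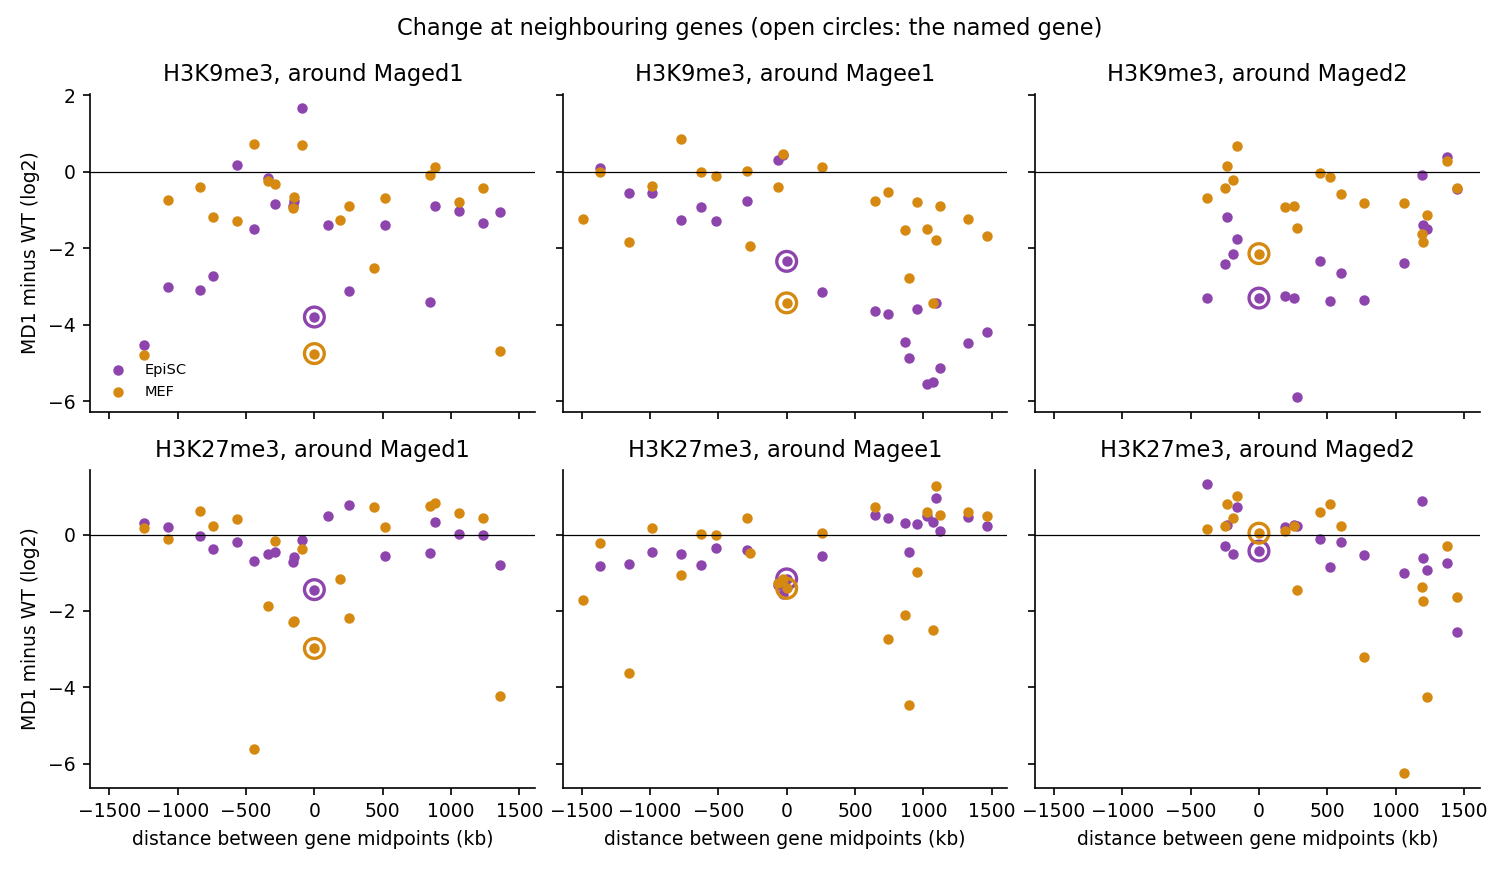
Change of H3K9me3 (above) and H3K27me3 (below) at genes within 1500 kb of Maged1, Magee1 and Maged2, against the distance between gene midpoints, in EpiSCs and MEFs; open circles mark the named gene. Around Maged1 the H3K9me3 change in MEFs at the 10 nearest measured genes was −2.51 to 0.70, and at Maged1 −4.75.

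Genes whose products work with MAGE proteins were set beside them, whatever their values. Pja1 (praja 1, a RING ubiquitin ligase that binds Maged1) had H3K27me3 of −0.25 in MD1 MEFs and 2.06 in WT MEFs, a change of −2.31 (−4.15 to −0.47). Xiap, a caspase inhibitor that Maged1 binds, was also lower there, with −2.37 in MD1 and 1.53 in WT, a change of −3.90 (−4.35 to −3.45). Ngfrap1, which binds the p75 neurotrophin receptor, had 3.23 in MD1 MEFs and 0.69 in WT MEFs, a change of 2.53 (0.60 to 4.47), and Dmd, the dystrophin gene, had 2.62 in MD1 and 1.43 in WT, a change of 1.19 (1.15 to 1.22). With Tro, 2 of the 5 related genes were at least 2-fold lower and 3 at least 2-fold higher in H3K27me3 in MEFs, where 24.0% of all genes were lower and 22.3% higher. In EpiSCs, where 4 had values, 1 (Xiap, 4.15 in MD1 and 1.08 in WT) was at least 2-fold higher and 0 lower, where 22.7% of all genes were higher and 11.3% lower. For H3K9me3 the count at least 2-fold lower was 4 of 4 in EpiSCs and 3 of 5 in MEFs, near the shares of all genes, 82.9% and 51.3%.

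The pattern over the 8 libraries, taken as the Euclidean distance after each library's median was subtracted, was closest between Maged1 and Renbp (2.27), Gla (2.37) and Trex2 (2.45), against a median distance of 4.93 to all 698 genes with all values. Magee1 had rank 4 at 2.45. The closest to Magee1 were Il2rg (1.20), Msl3 (1.24) and Rap2c (1.33), against a median of 4.10, and the closest to Maged2 were Arhgap36 (1.21), Pdk3 (1.29) and Pdzd4 (1.33), against 3.35. Maged2 ranked 94 among the genes closest to Maged1. In the other direction, Maged1 ranked 408 among the genes closest to Maged2, at 3.86, farther than the median of 3.35. Among the genes closest to Magee1, Maged1 ranked 37 and Maged2 61. These distances describe 1 library of each kind and carry counting error.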

How the data were processed

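H3K9me3 and H3K27me3 were measured by ChIP-seq in 8 libraries with 4 input libraries, 1 per mark, genotype and cell type. Per the labels' protocols, mouse monoclonal antibodies and the NEBNext Ultra II kit were used. Per the submitters' processing notes, the tools were cutadapt, BWA and SAMtools with build mm9; none of the sources used here gives versions, the counting rule, a minimum coverage or a pseudocount. For each X-linked gene the authors deposited log2 enrichment. Deposited starts were read as counting from 0 and are given counted from 1.

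Whole-number pairs were recovered by removing 1 constant per library (largest denominator 30000, relative tolerance 1e-12); 100% of values in each library matched. Both marks of the same cells were given a common denominator. The pairs are the smallest possible, so real counts may be multiples of them. The 95% counting intervals use them (normal approximation on the log scale). The procedure was tested on simulated data with typically larger counts than the H3K9me3 pairs of the somatic genes, and without the common denominator. That test therefore cannot vouch for intervals from the smallest pairs.

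Changes are MD1 minus WT, or MEF minus EpiSC, on the log2 scale, counted at 2-fold. Percentiles are among all genes with a value. With 1 library per group no test was run. Alternatives were a pseudocount of 0.1, 2 centrings, leaving out the lowest 10% of genes, and a 3-fold threshold. The named genes were all 5 members, the Magea and Mageb genes with the lowest and highest H3K9me3 change, the nearest measured neighbours, the 3 genes nearest in pattern and 5 related genes; others named were chosen after their values were seen. Members and lists were chosen with earlier results of these data known. Python 3.11.15, numpy 2.4.6, pandas 2.3.3 and matplotlib 3.10.9 were used.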

Additional observations from a re-analysis of the deposited data

Results flagged for a closer look

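The same contrast had opposite signs in the 2 cell types at several genes, with 1 library each, and the difference was not tested. The H3K27me3 change at Maged2 was −0.43 in EpiSCs and 0.034 in MEFs, with both counting intervals holding 0. At Mageb16-ps1 the H3K27me3 change was −0.48 in EpiSCs and 0.56 in MEFs, again with intervals that held 0 (−1.55 to 0.60 and −0.28 to 1.41). At Xiap it was 3.07 in EpiSCs (2.69 to 3.45) and −3.90 in MEFs (−4.35 to −3.45), both far beyond counting error. The H3K9me3 change at Tro was −1.75 in EpiSCs (−3.32 to −0.18) and 0.69 in MEFs (−0.65 to 2.03). Among the nearest measured neighbours of the somatic genes, the H3K9me3 change was −3.15 in EpiSCs and 0.13 in MEFs at 5330434G04Rik, −0.75 and 0.022 at 1700121L16Rik, and 0.30 and −0.39 at 5530601H04Rik, in the same order of cell types. The H3K27me3 change in EpiSCs and then MEFs was −0.56 and 0.038 at 5330434G04Rik, −0.40 and 0.44 at 1700121L16Rik, −0.54 and 0.46 at 9530051G07Rik, and −1.77 and 0.53 at Gpr143.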

How the results depend on the processing

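No paired analysis was possible because each group holds 1 library. Of 67 values of single somatic genes under an alternative, 6 changed sign, 4 of them by centring each library on the median of all genes and 2 by centring on genes outside the H3K9me3-rich set. By the first centring the H3K9me3 change at Magee1 in EpiSCs became 0.96 and the H3K27me3 change at Maged2 in MEFs −0.25. The differences between WT MEFs and WT EpiSCs at Maged2 became 1.55 for H3K9me3 and 0.28 for H3K27me3. By the other centring the H3K27me3 change at Maged2 became 0.033 in EpiSCs and −0.24 in MEFs. The first centring, on the median of all genes, also gave a median H3K9me3 change of −0.0052 in EpiSCs. It left 0 somatic genes at least 2-fold lower there and 2 of 4 in MEFs. It moved the change of all genes by 3.30 for H3K9me3 in EpiSCs (162 genes then 2-fold lower and 272 higher) where 587 were lower and 8 higher as deposited, and by 1.19 in MEFs (163 lower and 91 higher, against 379 and 5). For H3K27me3 it moved them by 0.10 in EpiSCs and −0.29 in MEFs (194 lower and 118 higher, against 177 and 165). Between WT MEFs and WT EpiSCs it left 90 lower and 244 higher for H3K9me3, against 485 and 25, and 17 lower and 161 higher for H3K27me3, against 556 and 46. Centring on genes outside the H3K9me3-rich set gave 187 lower and 55 higher for H3K9me3 in MEFs and, for H3K27me3, 46 and 224 in EpiSCs, against 80 and 161, and 193 and 118 in MEFs. It left 0 somatic genes at least 2-fold lower in H3K27me3 in EpiSCs. A 3-fold threshold left 0 there and 1, Maged1, in MEFs, and kept the H3K9me3 counts at 3 in EpiSCs and 4 in MEFs. The share of all genes past 3-fold was not counted, so these counts have no background beside them. The median H3K9me3 change in MEFs was −1.59 by the first centring and −1.80 by the other, against −2.78, and that in EpiSCs was −2.12 by the other, against −3.30. Depth limits H3K9me3 most: Magee1 in MD1 cells rested on a ChIP pair of 1, and Magee2 and Mageh1 on input pairs of 3 or 4.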

Other observations

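The balance of the marks within the same cells, H3K9me3 minus H3K27me3, cancels the input. For Maged1 it was −6.17 in MD1 EpiSCs and −3.81 in WT EpiSCs, and −2.51 in MD1 MEFs and −0.74 in WT MEFs. For Mageb16 it was −1.56 in MD1 EpiSCs and 4.57 in WT EpiSCs, and −1.63 in MD1 MEFs and 1.18 in WT MEFs. The sign of the deposited balance was thus negative at Mageb16 in both MD1 cell types and positive in both WT cell types, while at Maged1 it was negative in all 4; the sign itself holds the constants of the libraries, for which the medians of all genes were −5.29 (MD1 EpiSCs), −2.26 (WT EpiSCs), −3.27 (MD1 MEFs) and −2.18 (WT MEFs).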
